A study of Mus musculus with 2 samples.

Results

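The genes for the microRNAs miR-9, miR-124, miR-128 and miR-137, known as microRNAs of neurons, were examined in small RNA libraries of whole mouse heart. They were chosen by gene symbol: 9 members among the 2202 microRNA genes of the deposited count files, all of which matched a GENCODE M21 identifier. The members are Mir9-1, Mir9-2 and Mir9-3, Mir124a-1, Mir124a-2 and Mir124a-3, Mir128-1 and Mir128-2, and Mir137. The hearts came from male B6CASTF1/J mice at 2 months of age. This strain is a cross of C57BL/6J and CAST/EiJ, so each animal carries 1 allele of each autosomal gene from each parent. There were 2 libraries, numbered as biological replicates 1 and 2. The labels number the animals as different males but give both the same donor identifier. No treatment or other tissue is given, so the libraries form 1 group, and levels are described without a contrast of conditions.

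A microRNA is cut from a hairpin precursor, and either arm of the hairpin can yield a mature RNA of about the length of the reads sequenced here. The mature RNA guides repression of messenger RNAs that pair with its seed, the bases from position 2 to position 8. In the nervous system miR-9 acts in neural progenitors and neurons, miR-124 is a marker of differentiated neurons, and miR-128 and miR-137 act in neuronal excitability and maturation. Whole heart also holds nerve fibres and small nerve ganglia beside muscle, vessel, connective tissue and blood cells. In such bulk RNA, fewer cells of a type and less RNA per cell cannot be told apart.

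Sequences from the RefSeq table on GRCm38.p6, which has the coordinates of mm10, were found for 6 members. The members Mir124a-1, Mir124a-2 and Mir124a-3 are named only. The mature arms are printed below 5′ to 3′ with the seed in capitals, because whether an arm is found at 1 place or at several decides whether its reads can enter a gene's count.
miR-9-5p: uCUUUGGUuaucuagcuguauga
miR-9-3p: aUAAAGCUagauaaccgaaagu
miR-128-3p: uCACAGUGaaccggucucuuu
miR-128-1-5p: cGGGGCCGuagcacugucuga
miR-128-2-5p: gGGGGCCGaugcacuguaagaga
miR-137-5p: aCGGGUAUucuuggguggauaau
miR-137-3p: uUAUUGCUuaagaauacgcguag
The 5p arms of Mir128-1 and Mir128-2 differ in sequence but have the same seed. No listed arm of another mouse microRNA gene in that table had any of the 6 different seeds. Both miR-9 arms were found at 3 places among the microRNA hairpins, in Mir9-1, Mir9-2 and Mir9-3. The 3p arm of miR-128 was found at 2 places, and the 5p arms of Mir128-1 and Mir128-2 at 1 place each. Both arms of Mir137 were found at 1 place.

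The hairpins show where a read can tell the copies apart. Capitals mark bases inside a stretch of 20 or more bases that another microRNA gene at a different place also holds.
Mir9-1: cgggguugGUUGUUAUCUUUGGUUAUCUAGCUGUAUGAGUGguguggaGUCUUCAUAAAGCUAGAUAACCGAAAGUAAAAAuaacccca
Mir9-2: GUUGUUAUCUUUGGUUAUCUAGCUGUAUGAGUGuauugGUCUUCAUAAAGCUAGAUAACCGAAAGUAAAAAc
Mir9-3: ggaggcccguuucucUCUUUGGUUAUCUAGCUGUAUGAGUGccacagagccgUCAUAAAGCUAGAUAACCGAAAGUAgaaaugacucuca
Mir128-1: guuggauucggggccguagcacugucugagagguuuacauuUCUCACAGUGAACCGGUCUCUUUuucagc
Mir128-2: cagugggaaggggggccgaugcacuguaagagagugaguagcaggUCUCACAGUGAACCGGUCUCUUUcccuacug
Mir137: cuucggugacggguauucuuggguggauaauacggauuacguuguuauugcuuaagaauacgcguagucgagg
In Mir9-2, 66 of 72 bases lay in such stretches, and in Mir9-1 66 of 89. In Mir9-3 it was 51 of 90, in Mir128-1 23 of 70, in Mir128-2 23 of 76, and in Mir137 none of 73. The longest stretch shared with a gene elsewhere was 33 bases for Mir9-1 and Mir9-2, 26 bases for Mir9-3, 32 bases for each Mir124a gene and 23 bases for each Mir128 gene. Thus 8 of 9 members shared at least 20 bases, as did 1087 of all 2202 genes. Reads at several places were counted in a row of their own, of 4968988 reads in replicate 1 and 4868319 in replicate 2, and in no gene. That was 47.95% of all reads in replicate 1 and 46.44% in replicate 2. The row is not divided by sequence, so it sets no upper limit for miR-9 or miR-124 that would be of use.

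**Figure D1:**
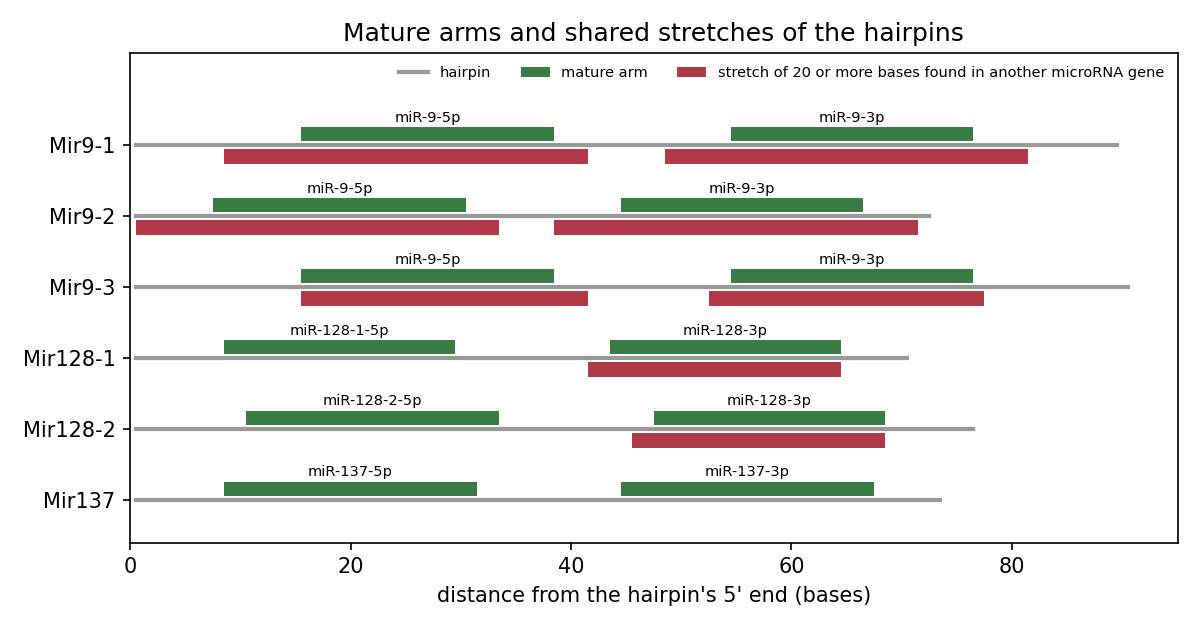
Map of the hairpins of 6 members by distance from the 5′ end in bases, with mature arms in green and, in red, stretches of 20 or more bases held by another microRNA gene. Red covers both arms of the 3 Mir9 genes, the 3p arm alone of Mir128-1 and Mir128-2, and no part of Mir137.

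The 3 Mir9 genes carry the same arms, but they differ in how soon a longer read becomes distinct. For Mir9-3, 1 added base at the 5′ end of the 5p arm, or 2 at the 3′ end of the 3p arm, gave a sequence found in no other hairpin elsewhere. For Mir9-1 the same ends needed 8 and 6 bases. For Mir9-2 the 3′ end of the 3p arm needed 6 bases, and its hairpin annotation ended before the 5′ end of the 5p arm became distinct. At the 3′ end of the 5p arm, each of the 3 genes needed 4 bases. The 3p arm of Mir128-1 and of Mir128-2 needed 1 base at the 3′ end. These searches covered microRNA hairpins alone and no other part of the genome.

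By mean level the order was Mir128-1, Mir137, Mir128-2, Mir9-3 and Mir9-1, with no count for the other members. The order of the first 3 was the same in both libraries, while Mir9-3 was above Mir128-2 in replicate 1 and equal to Mir9-1 in replicate 2. All are reads on the strand of the gene, scaled to a total of 1000000 reads over all microRNA genes (CPM). A small RNA read spans a whole mature RNA, so the values were not divided by the length of the gene. The limit for detection, 2 CPM in each library, was reached by 3 of the 9 members and by 15.3% of all 2202 genes. No read was counted for 4 members, against 67.2% of all genes. The median mean level was 0.268 CPM over the 9 members and 0 over all genes. The sum over the 9 members was 309 CPM in replicate 1 and 291 in replicate 2, a mean of 300.0 CPM ± 12.3 (SD, n = 2). Their share of the reads counted for microRNA genes was 0.0309% (95% Clopper-Pearson interval 0.0291 to 0.0327) in replicate 1. It was 0.0291% (0.0274 to 0.0309) in replicate 2. Intervals of this kind cover counting error only. Reads at several places are neither in the members' reads nor in the total.

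**Figure D2:**
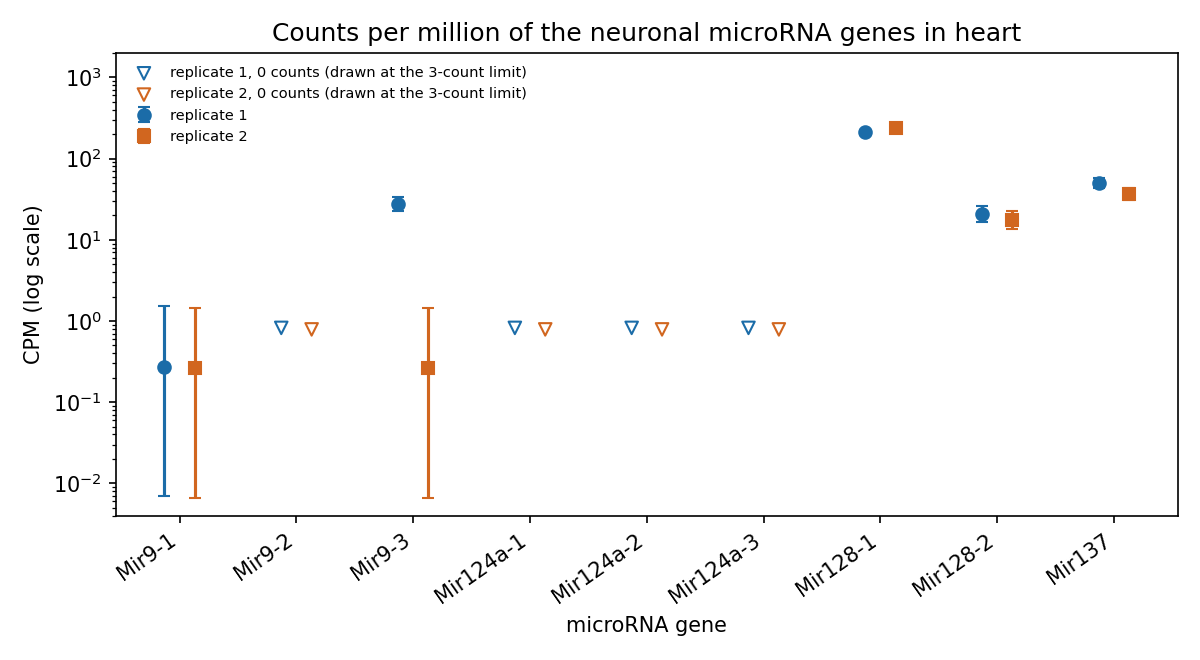
CPM of each member on a log scale in replicate 1 (circles) and replicate 2 (squares), with 95% Clopper-Pearson bars, and open triangles at the level of 3 counts for genes with no count. Mir128-1 stood highest in both libraries, Mir9-3 was near the level of Mir128-2 in replicate 1 and near that of Mir9-1 in replicate 2.

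Mir128-1 held most of the reads counted for these genes, which leave out all reads at several places. It lies in an intron of R3hdm1, a protein-coding gene, at chr1:128202361-128202430 on the plus strand of mm10. It had 766 reads in replicate 1 and 902 in replicate 2, or 210 and 237 CPM, a mean of 223 CPM ± 19.0 (SD, n = 2). Its rank by mean level was 104 of 2202 genes. The libraries lay close to each other, 1 SD being 8.52% of the mean. Of all reads counted for the 9 members, those of Mir128-1 were 68.0% (95% Clopper-Pearson interval 65.2 to 70.7) in replicate 1. They were 81.3% (78.8 to 83.5) in replicate 2. In the same libraries the share of Mir137 was 16.2% and 12.5%, and that of Mir9-3 was 8.96% and 0.0901%. These are shares of reads at a single place, so they do not give the shares of the mature RNAs.

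Mir128-2, which encodes the same 3p arm, was far lower. It lies in an intron of Arpp21, the gene of a cyclic AMP-regulated phosphoprotein that is enriched in brain, at chr9:112118636-112118711 on the minus strand. It had 76 reads in replicate 1 and 67 in replicate 2, or 20.8 and 17.6 CPM, a mean of 19.2 CPM ± 2.29 (SD, n = 2). The ratio of Mir128-1 to Mir128-2 was 10.1 in replicate 1 and 13.5 in replicate 2. On the log2 scale its mean was 3.51 ± 0.29 (SD, n = 2). Of the reads of both Mir128 genes, those of Mir128-1 were 91.0% (95% Clopper-Pearson interval 88.8 to 92.8) in replicate 1. They were 93.1% (91.3 to 94.6) in replicate 2. The order was the same in both libraries, but with 2 libraries no exact sign-flip permutation test gives a p below 0.5, so the ratio was not tested. It is a ratio of reads that map to a single place. Reads within the 23 bases that both hairpins hold, which include the whole miR-128-3p, are missing from both counts, and the counts do not say from which arm they came. The ratio therefore does not give the share of miR-128-3p that each gene makes.

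Mir137 was the only member with no stretch of 15 bases or more in common with another microRNA gene, so shared sequence among microRNA genes does not lower its count. It lies at chr3:118433857-118433929 on the plus strand, overlapping an exon of the noncoding transcript gene Gm26871. It had 183 reads in replicate 1 and 139 in replicate 2, or 50.1 and 36.5 CPM, a mean of 43.3 CPM ± 9.65 (SD, n = 2). Its rank by mean level was 184 of 2202 genes, and the 337 detected genes had a median of 54.1 CPM. Its counted level was below that of Mir128-1 and above that of Mir128-2 in both libraries. The Mir128 counts leave out reads within the bases that both Mir128 hairpins hold, while the count of Mir137 has no such loss. The place of Mir137 above Mir128-2 is therefore one of counted reads and does not give the order of the mature RNAs. The gap to each Mir128 gene was larger than the SDs of the 2 genes added together. It was 180 CPM against 28.7 for Mir128-1 and 24.1 CPM against 11.9 for Mir128-2. Each SD is of 2 libraries, and the gaps were not tested.

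With 0.5 reads added to each count, Mir9-3 had the largest ratio between the libraries of the 722 microRNA genes with a count. It lies in an intron of the long noncoding RNA gene Mir9-3hg at chr7:79505264-79505353 on the plus strand. It had 101 reads in replicate 1 and 1 read in replicate 2. These were 27.7 CPM (95% Clopper-Pearson interval 22.5 to 33.6) and 0.262 CPM (0.00664 to 1.46), a mean of 14.0 CPM ± 19.4 (SD, n = 2). The mean describes neither library. In replicate 1 Mir9-3 was above Mir128-2, and in replicate 2 it was at the level of Mir9-1, so its place in the order is not set by these data. It did not pass the filter on low counts that preceded the test of the libraries. With every gene that had a count tested, its log2 ratio of replicate 1 to replicate 2 was 6.08, which depends on the 0.5 reads added to each count (adjusted p = 4.03e-28 by the exact binomial test). The plain ratio of CPM was 105, with a 95% Clopper-Pearson interval of 18.5 to 4205 from its 101 reads and 1 read. The test and the interval cover counting noise only and hold no variation between animals. Of those 722 genes, 29.5% differed between the libraries and 13.2% were higher in replicate 1. No other gene had a log2 ratio as large in either direction. The second in favour of replicate 1 was Gm24270, with 38 reads in replicate 1 and 1 read in replicate 2, a log2 ratio of 4.68. All reads of Mir9-3 were on the strand of the gene.

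The other Mir9 genes had almost no reads. Mir9-1, in an intron of the long noncoding RNA gene Gm3764 at chr3:88215598-88215686 on the plus strand, had 1 read in replicate 1 and 1 in replicate 2. In the count without strand it had 0 reads. The predicted microRNA gene Gm25641 covers it on the opposite strand, and a read over both genes cannot then be told to be of 1 of them. On its own strand Gm25641 had 0 reads in each library. Mir9-2, at chr13:83738814-83738885 on the plus strand and overlapping an exon of the long noncoding RNA gene C130071C03Rik, had no read in either library. Where reads map to a single place, a count of 0 allows up to 3 counts, or 0.822 CPM in replicate 1 and 0.787 CPM in replicate 2. The reads of Mir9-3 in replicate 1 stand apart from those of Mir9-1 and Mir9-2, whose arms are identical, in the same library. Of the 3 hairpins, Mir9-3 has the fewest bases in shared stretches. Its part in the difference was not tested.

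None of the miR-124 genes had a read on either strand in either library. Mir124a-1 lies at chr14:64590657-64590741 overlapping an exon of the long noncoding RNA gene Mir124a-1hg, and Mir124a-2 at chr3:17795662-17795770 overlapping an exon of Mir124-2hg. Mir124a-3, at chr2:180894040-180894107, overlaps the first 3 bases of the long noncoding RNA gene Gm27032. All are on the plus strand. The limit of 3 counts is again 0.822 CPM in replicate 1 and 0.787 CPM in replicate 2 for each gene. It does not cover reads that map to several places. Each gene shares 32 bases with another microRNA gene, so these counts do not show that mature miR-124 is absent from heart.

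**Figure D3:**
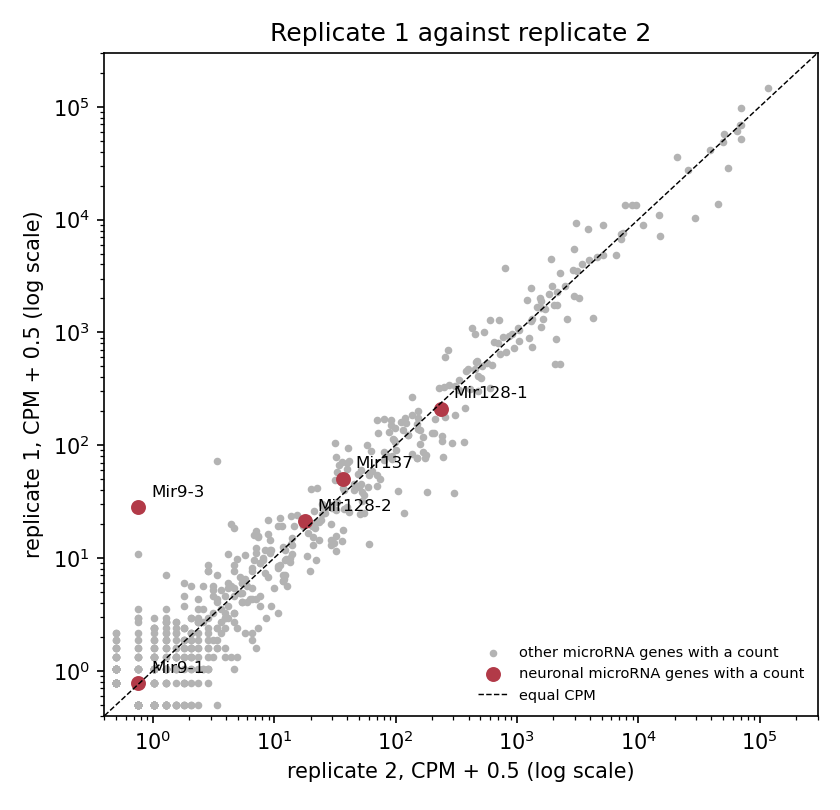
CPM + 0.5 of each microRNA gene with a read, replicate 1 on the vertical and replicate 2 on the horizontal axis, both log scales, with members in red and a dashed line of equal CPM. Mir128-1, Mir128-2, Mir137 and Mir9-1 lie near the line and Mir9-3 lies far above it, at 27.7 and 0.262 CPM.

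Across all microRNA genes with arms in the RefSeq table, genes fell into 3 classes by whether their arms lie in a hairpin elsewhere. Of 50 genes with every listed arm shared, as for the 3 Mir9 genes, 6 were detected and 39 had no read. Of 61 genes with some arms shared, as for both Mir128 genes, 35 were detected and 11 had no read. Of 907 genes with no arm shared, as for Mir137, 262 were detected and 356 had no read. These shares describe the table and were not tested.

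Differences between the libraries were set against counting noise by an exact two-sided binomial test of each gene's reads, adjusted over the 320 genes past the low-count filter. The test compares these libraries and not conditions. Of the 3 members tested, Mir137 was higher in replicate 1 and Mir128-1 lower in replicate 1, while 64.4% of all tested genes differed, 33.8% higher and 30.6% lower in replicate 1. The log2 ratio of replicate 1 to replicate 2 was 0.47 for Mir137 (adjusted p = 0.00670 by the exact binomial test) and -0.16 for Mir128-1 (adjusted p = 0.0387). For Mir128-2 it was 0.26, and it did not pass the threshold (adjusted p = 0.401). The median absolute log2 ratio over all tested genes was 0.44, so Mir128-1 and Mir128-2 differed less than the median gene. The call for Mir128-1 was lost with DESeq2 size factors (adjusted p = 0.0727), and that for Mir137 without the low-count filter (adjusted p = 0.0549).

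The genes with the most similar levels were found by distance in log2(CPM + 0.5) over the 2 libraries. For Mir128-1 they were Mir700, Mir350 and Mir3102, at distances of 0.04, 0.11 and 0.27. For Mir137 they were Mir1198, Mir92b and Mir298, at 0.02, 0.09 and 0.24. For Mir128-2 they were Mir672, Mir212 and Mir138-2, at 0.17, 0.24 and 0.29. For Mir9-3 no gene was near, and the closest were Gm24270, Mir5134 and Mir26a-1 at 1.37, 2.13 and 2.54. Mir26a-1 had 261 reads in replicate 1 and 11 in replicate 2. For Mir9-1, 14 genes had the same 1 read in each library. A likeness over 2 libraries of 1 tissue is one of level alone.

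**Figure D4:**
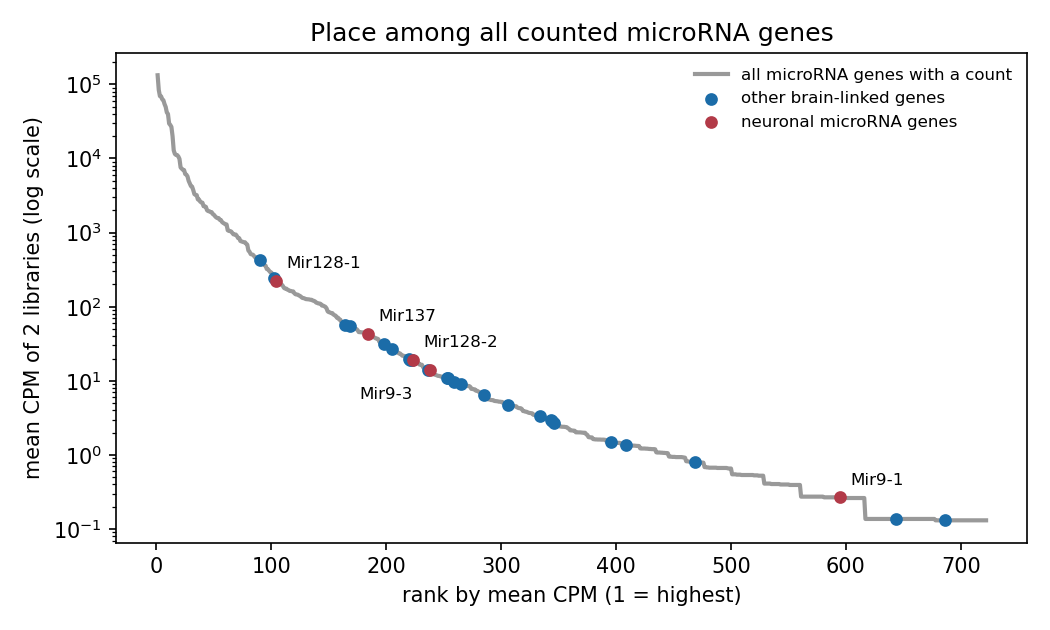
Mean CPM on a log scale against rank for all microRNA genes with a read (grey line), with the members in red and 25 other brain-linked genes in blue. Mir128-1 stands at rank 104, beside Mir338, and Mir137 at rank 184.

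A list of 25 other microRNA genes linked to brain or neurons was chosen with earlier results of these data known. It held more counted reads than the 9 members, and its highest gene, Mir132, alone had a mean of 432 CPM. The sum of the list was 996 CPM in replicate 1 and 979 in replicate 2, a mean of 988 CPM ± 11.7 (SD, n = 2). Of these genes 19 were detected, beside 15.3% of all genes. Of genes with arms in the RefSeq table, 28.9% were detected where no arm was shared. The share was 57.4% where some arms were shared and 12% where every arm was. All 25 had a read in at least 1 library, as did 722 of all 2202 genes. Of the list 12 shared at least 20 bases with another gene, beside 8 of the 9 members and 1087 of all 2202. The median of the list was 9.67 CPM. Of the 16 that passed the low-count filter, 6 were higher in replicate 1 and 2 were lower by the same exact binomial test, beside 33.8% and 30.6% of all tested genes.

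Counts from whole heart do not say which cells the reads of the brain-linked genes came from. Mir132, a microRNA induced by neuronal activity through CREB, was the highest of the list. It had 469 CPM in replicate 1 and 394 CPM in replicate 2. Mir338, known from oligodendrocytes and neurons, had 185 and 307 CPM. Mir326 had 53.7 and 60.1 CPM, and Mir138-1, which regulates dendritic spine size in rat neurons, had 78.9 and 32.0 CPM. Mir134, a regulator of dendritic spines in rat neurons, had 31.0 and 32.3 CPM. Mir338 had 0 reads in the count without strand, as had Mir378a, the gene with the most reads in these libraries. Mir126a, given below for scale, had 15 reads in replicate 1 and 29 in replicate 2 in that count. At the low end of the list Mir153, Mir592 and Mir135a-1 had at most 4 reads in either library.

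**Figure D5:**
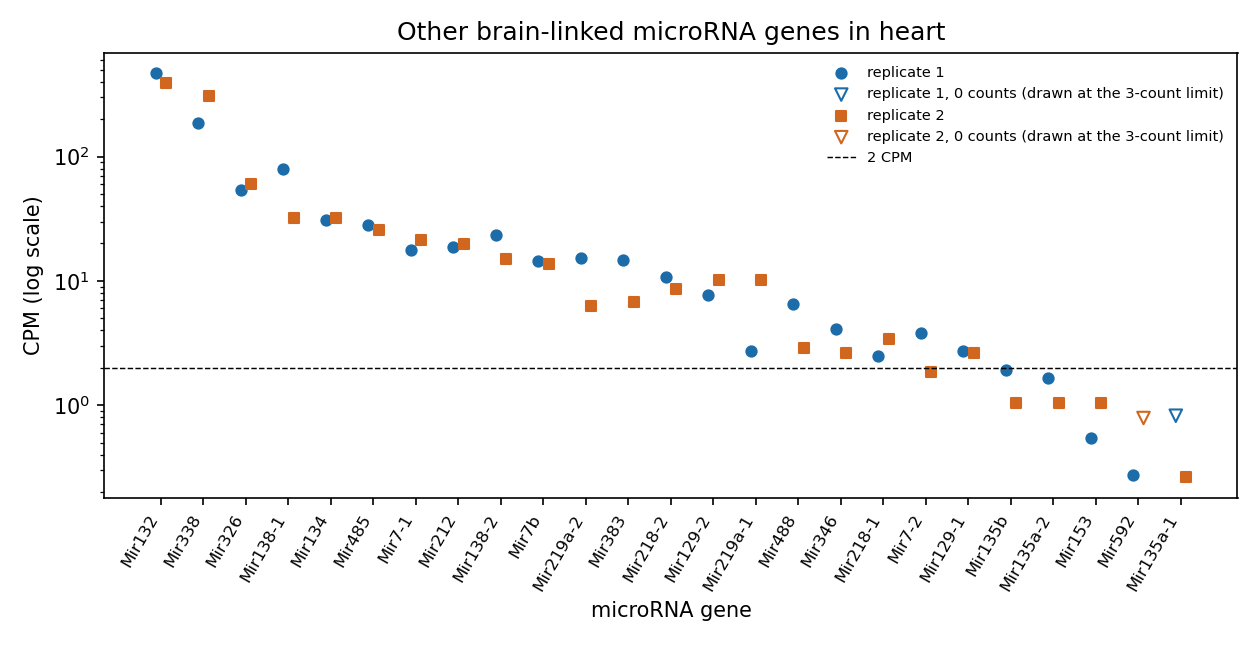
CPM on a log scale of 25 other brain-linked microRNA genes in replicate 1 (circles) and replicate 2 (squares), ordered by mean, with open triangles at the level of 3 counts for 0 counts and a dashed line at 2 CPM. Mir132 was highest, at 469 and 394 CPM, and 19 genes lay above the dashed line in both libraries.

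Of the genes that mark heart cells, 3 are given for scale. Mir208a, from an intron of a cardiac myosin gene, had 1329 CPM in replicate 1 and 4265 CPM in replicate 2. Mir499, from a related myosin gene, had 2601 and 2507 CPM, and Mir126a of endothelium had 52212 and 70228 CPM. Of the 7 heart muscle genes, 6 were detected, beside 15.3% of all genes. The 5 not named above were far lower, with means from 2.15 to 71.1 CPM, and 4 of them share at least 20 bases with another gene. Mir1a-1, at 1.64 CPM in replicate 1 and 5.25 CPM in replicate 2, was the gene not detected. The gene with the most reads, Mir378a, was at 132638 CPM ± 21763 (SD, n = 2). Each library held about as many reads, 3650782 for microRNA genes in replicate 1 and 3810675 in replicate 2.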

How the data were processed

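Small RNA from whole heart was sequenced in 2 libraries, with a size range given as under 30 in the labels. The authors deposited raw read counts per microRNA gene, 1 file per library with 3 count columns (reads of either strand, of the gene's strand, and of its opposite) and 4 rows that name no gene. The text deposited with the files gives assembly mm10 and GENCODE M21, and the aligner was not given in the sources used here. From the column of the gene's strand, CPM was computed over the sum of all gene rows. The rows that name no gene held 64.8% of reads in replicate 1 and 63.6% in replicate 2 and were left out. Reads carried no molecular identifiers used here.

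The members, gene lists and tests were chosen with earlier results of these data known. Names follow fixed rules: all members, the 3 nearest genes to each by level, the 5 highest brain-linked genes, hosts, 3 heart markers and the most abundant gene. The second gene by library ratio and the low end of the brain-linked list were named after their values were seen. The libraries were compared with an exact binomial test against TMM library sizes (edgeR 4.0.16, R 4.3.3) over genes past filterByExpr, with p-values adjusted by Benjamini-Hochberg and called under 0.05. It was tested on simulated data that held counting noise and set changes but no variation between animals. DESeq2 1.42.0, scipy 1.17.1 and Python 3.11.15 were used. Alternatives were other scalings, filters, detection limits, strand columns, pseudocounts and stretch lengths, and each library left out.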

Additional observations from a re-analysis of the deposited data

How the results depend on the processing

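The summed level of the 9 members was 300.0 CPM, and 389 CPM in the count without strand, 264 CPM over all uniquely mapped reads and 346 CPM with Mir378a left out of the total. In the count without strand the members had the same reads, apart from Mir9-1, which fell to 0. The total over microRNA genes was smaller there, 2790062 reads in replicate 1 and 2965399 in replicate 2. Leaving out each replicate gave 291 to 309 CPM for the summed level and 3 to 4 detected members. The log2 ratio of Mir128-1 to Mir128-2 was then 3.30 to 3.71. The fourth detected member was Mir9-3, whose level was 27.7 CPM without replicate 2 and 0.262 CPM without replicate 1. The members detected were 3 at limits of 1 and 10 CPM and without strand, and 8 shared a stretch at 18 and at 22 bases. The genes differing between the libraries were 206 of 320 tested (64.4%). Under other scalings, filters and strand they were 176 to 213, but the number tested changed too. Of 722 genes without the low-count filter 213 differed (29.5%), and of 238 genes at 10 CPM or more 176 differed. The log2 ratios between the libraries kept their direction for Mir128-1, Mir128-2 and Mir137 under each of these settings. No paired analysis was possible because the libraries form 1 group. Depth limits Mir9-1 and the genes with no read, and the row of reads at several places limits the miR-9, miR-124 and miR-128 genes at any depth.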
